A study of Mus musculus with 12 samples.

Results

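Marker genes of cell types other than keratinocytes were examined in cultures of mouse keratinocytes, the main cell type of the epidermis, as a measure of which other cells' transcripts the cultures held. The 10 genes are *Col1a1*, *Col3a1*, *Dcn* and *Pdgfra* for fibroblasts, *Dct*, *Tyrp1* and *Sox10* for melanocytes, *Ptprc* and *Cd207* for immune cells, and *Pecam1* for endothelial cells. They were taken by gene name from a table of 21947 loci, and each of the 10 names was found in 1 locus. Loci that join names by a comma were left out, and 2 of the 10 loci join a second name by a plus sign: that of *Pdgfra* also holds Mir7025, and that of *Sox10* also holds AK215788. The table gives 12 RNA-Seq libraries of neonatal BALB/c keratinocyte cultures in 2 batches, and all of these cultures grew in medium with 8% serum and 0.05 mM calcium, received calcium to 0.12 mM to induce differentiation, and were harvested at 48 hours. Batch 1 held 2 libraries without small interfering RNA (no siRNA), 2 with a non-targeting pool (siControl) and 2 with a pool against the mRNA of *Sbsn* (siSbsn), and batch 2 held 3 siControl libraries numbered 1 to 3 and 3 siSbsn libraries numbered 4 to 6. The siRNA was given at 75 pmol, 24 hours after seeding. The labels do not say whether libraries of a group came from separate animals or cultures, so p-values measure the spread between these libraries, which may be technical.

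Keratinocytes share the skin with several other cells. Dermal fibroblasts secrete the collagen matrix, melanocytes are pigment cells of neural crest origin that sit among basal keratinocytes and hair follicle cells, Langerhans cells are the resident antigen-presenting cells of the epidermis, and endothelial cells line the dermal vessels. In libraries made from a whole culture, a lower value of a marker can mean fewer cells of that type or less transcript in each cell. These cannot be told apart here, and whether the keratinocytes themselves transcribed some of these genes was not tested.

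The libraries held from 27934836 to 49553923 counts each. The labelled cell type was present in every library, with *Krt14*, a basal keratin, at 9607 to 28820 CPM and *Krt5*, its partner, at 6489 to 17990 CPM. CPM (counts scaled to library size with a TMM factor) is the unit of level. *Sbsn*, the targeted gene, was at 332 to 459 CPM in siControl and 121 to 125 CPM in siSbsn of batch 2. In batch 1 the no siRNA libraries had 1231 and 1697 CPM, siControl had 1189 and 1356 CPM and siSbsn replicate 2 had 696 CPM, whereas batch 1 replicate 1 of siSbsn, as labelled, had 1965 CPM, the highest value of the 12, which goes against its label. A further library stood apart by gene length, measured as each library's deviation from the mean of its batch. In siControl batch 1 replicate 1 this deviation fell by 0.365 on the log2 scale per doubling of transcript length. The slopes of the other 11 were -0.134 to 0.147. These slopes are relative to libraries of the same batch and do not compare the batches. Results below are given with and without these libraries where leaving one out changed a call.

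The pigment enzymes and type I collagen led the markers by level. Per kilobase of transcript, *Tyrp1* (107 ± 26.1 CPM per kilobase, SD, n = 12) and *Dct* (106 ± 20.7) lay highest, followed by *Col1a1* (67.1 ± 34.0). The order depends on the length used, here that of the longest protein-coding transcript: by the median transcript length *Col1a1* came first, at 929.9 CPM per kilobase against 159 for *Tyrp1* and 115 for *Dct*. *Tyrp1* exceeded *Dct* in 8 of 12 libraries, and *Dct* exceeded *Col1a1* in 10 of 12, so the ranges of these neighbours overlapped. *Sox10* (6.09 ± 0.734), *Col3a1* (4.07 ± 1.65) and *Dcn* (3.77 ± 1.63) formed a middle group, in which *Col3a1* exceeded *Dcn* in 6 of 12 libraries. *Pdgfra* was lower (0.94 ± 0.29), and *Ptprc* (0.157 ± 0.119) and *Pecam1* (0.108 ± 0.039) were lowest of the detected genes, in an order that held in 7 of 12 libraries. *Col1a1* lay above *Sox10*, *Dcn* above *Pdgfra*, and *Pdgfra* above *Ptprc* in all 12 libraries. *Cd207* had a count of 0 in every library. On the same scale *Tyrp1* was at 0.322% to 2.42% of *Krt14*, *Col1a1* at 0.346% to 1.40%, and *Ptprc* at 0.000544% to 0.00395%. *Trp63*, the transcription factor of basal keratinocytes, was at 38.6 ± 7.01 CPM per kilobase, below the means of both pigment enzymes, and *Cdh1*, the epithelial cadherin, was at 378 ± 57.9.

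**Figure D1:**
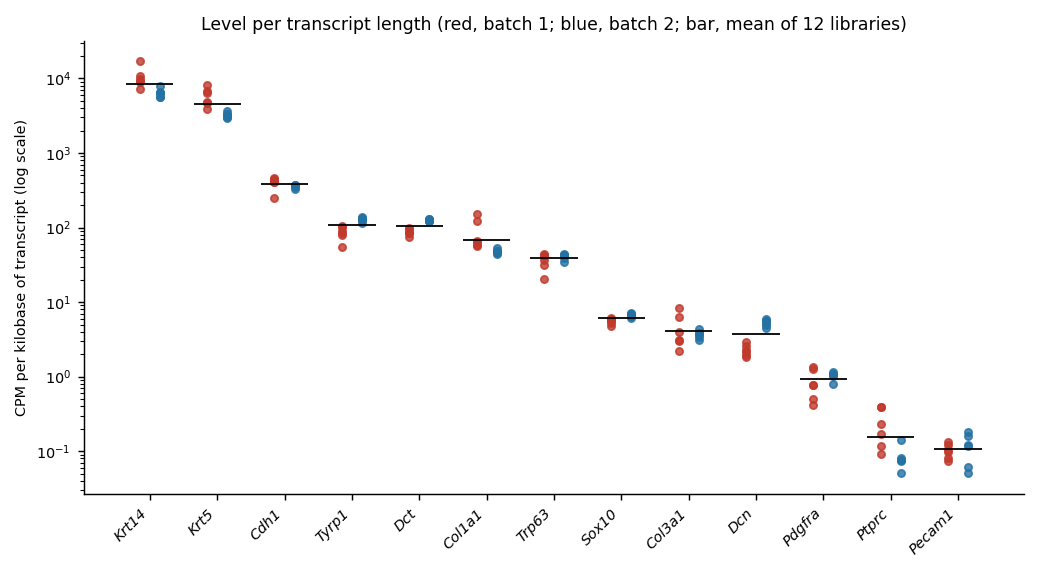
Level per kilobase of transcript (log scale) of the 9 markers with counts and of 4 keratinocyte genes, in 6 libraries of batch 1 (red) and 6 of batch 2 (blue), with the mean of 12 libraries as a bar. *Tyrp1*, *Dct* and *Col1a1* lie near the keratinocyte factor *Trp63* and *Ptprc*, at most 0.389 CPM per kilobase, and *Pecam1*, at most 0.183, lie lowest.

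The 3 melanocyte markers were higher in every batch 2 library than in every batch 1 library that received siRNA. *Dct* (dopachrome tautomerase, chr14:118012790-118052246 of mm10, minus strand, 8 exons) and *Tyrp1* (tyrosinase-related protein 1, chr4:80834213-80851736, plus strand, 8 exons) encode enzymes of melanin synthesis, and *Sox10* (chr15:79154909-79164506, minus strand, 5 exons) encodes a neural crest transcription factor that Schwann cells also use. BALB/c mice are albino because of a tyrosinase mutation and carry the brown allele of *Tyrp1*, so their melanocytes make no pigment while the genes are still transcribed. The promoters of *Dct* and *Tyrp1* are shown with that of *Tyr* (tyrosinase), because these loci encode the enzymes of 1 pathway and moved together between batches. They are RefSeq sequences of GRCm38.p6, from 250 bases before to 50 bases after the transcription start, for *Dct* chr14:118052197-118052496 on the minus strand, for *Tyrp1* chr4:80833963-80834262 on the plus strand and for *Tyr* chr7:87493463-87493762 on the minus strand. Capitals mark the M-box core TCATGTG, or its reverse complement CACATGA, a motif that the melanocyte factor MITF is known to bind.
Dct: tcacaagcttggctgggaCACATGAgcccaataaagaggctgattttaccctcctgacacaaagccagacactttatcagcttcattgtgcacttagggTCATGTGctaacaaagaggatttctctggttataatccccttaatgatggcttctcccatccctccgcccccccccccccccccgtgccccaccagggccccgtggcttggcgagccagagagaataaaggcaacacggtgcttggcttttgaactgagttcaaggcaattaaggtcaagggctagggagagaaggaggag
Tyrp1: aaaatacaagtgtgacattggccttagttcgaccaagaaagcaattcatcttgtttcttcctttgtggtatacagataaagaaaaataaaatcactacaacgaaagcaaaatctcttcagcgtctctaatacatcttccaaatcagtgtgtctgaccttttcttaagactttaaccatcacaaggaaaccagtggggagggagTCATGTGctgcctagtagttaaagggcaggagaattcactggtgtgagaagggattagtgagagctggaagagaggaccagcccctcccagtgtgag
Tyr: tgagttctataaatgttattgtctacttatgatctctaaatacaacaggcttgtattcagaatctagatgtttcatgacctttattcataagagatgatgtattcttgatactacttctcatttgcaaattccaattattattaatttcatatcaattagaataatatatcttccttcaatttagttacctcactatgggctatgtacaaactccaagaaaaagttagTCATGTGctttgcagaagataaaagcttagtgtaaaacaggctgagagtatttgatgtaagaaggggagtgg
The core occurred at 2 places in the *Dct* window, with its bases 151 to 145 upstream of the start on the plus orientation and 232 to 226 upstream on the reverse, at 47 to 41 upstream in *Tyrp1* and at 22 to 16 upstream in *Tyr*. Of 32851 promoter windows of this length, 1239 (3.77%) held the core on either strand, and 4650 (14.15%) held the shorter CATGTG, which the core contains. Windows were given for 6 of the 10 markers, and those of *Col3a1*, *Pdgfra*, *Ptprc* and *Cd207* did not hold the core, nor did any of 3 windows of *Mitf*, the gene of that factor. Of these windows, that of the fibroblast marker *Col3a1* held the shorter CATGTG, as its reverse complement CACATG. A match of letters describes the sequence and does not show that the factor was bound.

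*Dct* had, in batch 1, 215 and 188 CPM (no siRNA), 183 and 189.6 CPM (siControl) and 214 and 167 CPM (siSbsn). In batch 2 it had 287, 285 and 273 CPM (siControl) and 267, 274 and 267 CPM (siSbsn). The batches did not overlap, and the batch 2 libraries lay within 267 to 287 CPM. Over the siControl and siSbsn libraries, the log2-fold change of batch 1 against batch 2 was -0.55 (standard error, SE, 0.08; edgeR q = 0.000445). A locus counted as called with a change of more than 0.5 on the log2 scale in either direction and q below 0.05. Leaving out siSbsn batch 1 replicate 2 moved *Dct* to -0.49 (q = 0.00137), under the fold threshold.

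*Tyrp1* had, in batch 1, 283 and 245 CPM (no siRNA), 149 and 219 CPM (siControl) and 276 and 231 CPM (siSbsn). It had 347, 374 and 314 CPM (siControl) and 351, 363 and 359 CPM (siSbsn) in batch 2. Again no batch 1 library reached the lowest of batch 2, and the log2-fold change was -0.70 (SE 0.13, edgeR q = 0.00146). The lowest *Tyrp1* value, 149 CPM, came from siControl batch 1 replicate 1, the library with the length trend, and the change was -0.57 (q = 0.000352) without it. Per kilobase, *Dct* was at a median of 94.4% of *Tyrp1* over the 12 libraries, from 89.2% to 152%, and the highest value was that of the same library. *Dct* has a coding transcript of 2202 bases and *Tyrp1* of 2720 bases. The part of transcript length in this ratio was not tested.

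*Sox10* was steadier, with 16.4 and 15.3 CPM (no siRNA), 13.2 and 15.8 CPM (siControl) and 16.9 and 14.3 CPM (siSbsn) in batch 1. In batch 2 it had 18.9, 20.1 and 18.1 CPM (siControl) and 19.1, 17.0 and 18.2 CPM (siSbsn). The siControl and siSbsn libraries of the batches met without overlapping (16.9 against 17.0 CPM), and the log2-fold change of -0.30 (SE 0.10, edgeR q = 0.024) was under the fold threshold. *Sox10* was therefore not called.

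Of the 13 melanocyte loci tested, 8 were lower in batch 1 and 0 higher, with a median log2-fold change of -0.63 against 0.02 over all 13562 loci tested, of which 16.3% were called lower in batch 1 and 21.7% higher. Besides *Dct* and *Tyrp1*, the called loci were *Tyr* (-0.86, q = 0.000489), *Oca2* and *Slc45a2*, which encode transporters of the pigment organelle (-1.07, q = 0.000774 and -0.63, q = 0.00123), *Trpm1*, a cation channel (-0.76, q = 0.00319), and the receptors *Kit* (-0.75, q = 0.00362) and *Ednrb* (-0.78, q = 0.00677), with q-values from edgeR. The lowest values of *Tyr* (9.29 CPM), *Oca2* (3.35 CPM), *Kit* (6.09 CPM) and *Ednrb* (2.88 CPM) came from siControl batch 1 replicate 1, the library with the length trend. The locus with the highest mean CPM of the list did not pass. It was *Pmel*, a fibril protein of the pigment organelle counted together with *Dgka*, with a mean of 304.6 CPM and a log2-fold change of -0.16 (q = 0.182 from edgeR). *Mitf*, the factor named above, was at -0.21 (q = 0.113), and *Mlana*, a melanosome protein, was at 0.02 (q = 0.923). The summed level of the 13 loci was 778 to 986 CPM in batch 1 and 1097 to 1165 CPM in batch 2. *Mcam*, of the pericyte and smooth muscle list, had a log2-fold change of -0.86 (edgeR q = 2.67e-05). In that list 6 of the 7 loci tested were above 0 and 1 was below, with a median of 0.32. Which cells the *Mcam* transcripts came from was not tested.

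The fibroblast genes did not move as 1 group between batches. *Col1a1* and *Dcn*, which encode the main chain of type I collagen and the collagen-binding proteoglycan decorin, changed in opposite directions. *Col1a1* lies at chr11:94936224-94953042 on the plus strand, with 51 exons, and *Dcn* at chr10:97479500-97518163 on the plus strand, with 8 exons. *Col3a1* (type III collagen) lies at chr1:45311538-45349706 and *Pdgfra*, the receptor for platelet-derived growth factor on mesenchymal cells, at chr5:75152291-75198204, both on the plus strand, with 51 and 23 exons.

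*Col1a1* had, in batch 1, 725 and 385 CPM (no siRNA), 349 and 335 CPM (siControl) and 902 and 381 CPM (siSbsn). In batch 2 it had 314, 288 and 281 CPM (siControl) and 288, 268 and 261 CPM (siSbsn). All batch 1 libraries were above all of batch 2, and 2 of them, no siRNA replicate 1 and the library labelled siSbsn replicate 1, were far above the rest. The log2-fold change of batch 1 against batch 2 was 0.74 (SE 0.24, edgeR q = 0.0237). With the library labelled siSbsn replicate 1 of batch 1 left out it was 0.31 (q = 0.0166), under the fold threshold. Within siControl the difference was 0.23 (q = 0.218) and within siSbsn 1.22 (q = 0.0155). Leaving out siSbsn batch 2 replicate 4, 5 or 6 left folds of 0.71, 0.68 and 0.67 with q-values of 0.0543, 0.0571 and 0.0578.

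*Dcn* had, in batch 1, 3.98 and 3.39 CPM (no siRNA), 3.82 and 3.17 CPM (siControl) and 4.50 and 5.13 CPM (siSbsn). It had 10.4, 8.998 and 7.89 CPM (siControl) and 9.89, 8.77 and 9.69 CPM (siSbsn) in batch 2. The batches stood apart, with a log2-fold change of -1.17 (SE 0.13, edgeR q = 8.13e-05) that was called under every alternative and without any single library. Per kilobase, *Dcn* was at 1.68% to 4.55% of *Col1a1* in batch 1 and at 9.48% to 12.5% in batch 2.

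*Col3a1* had, in batch 1, 35.1 and 16.5 CPM (no siRNA), 17.1 and 12.2 CPM (siControl) and 45.9 and 21.8 CPM (siSbsn). It had 21.4, 18.8 and 17.4 CPM (siControl) and 24.1, 21.4 and 20.0 CPM (siSbsn) in batch 2. The batches overlapped, with a log2-fold change of 0.14 (SE 0.24, edgeR q = 0.645), although *Col3a1* was high in the same 2 libraries as *Col1a1*. *Pdgfra* had, in batch 1, 8.74 and 5.29 CPM (no siRNA), 2.81 and 3.43 CPM (siControl) and 9.12 and 5.26 CPM (siSbsn). In batch 2 *Pdgfra* had 7.45, 7.18 and 5.47 CPM (siControl) and 7.44, 6.98 and 7.91 CPM (siSbsn). The siControl libraries of batch 1 were the lowest of the 12, and the batches overlapped through siSbsn. The *Pdgfra* change was -0.54 (SE 0.23, edgeR q = 0.0684), -1.09 (q = 0.0318) within siControl and -0.07 (q = 0.797) within siSbsn. It passed the thresholds with no filter on low counts (-0.54, q = 0.0497) and by DESeq2 (-0.57, q = 0.0332). With the library labelled siSbsn replicate 1 of batch 1 left out it was -0.87 (q = 0.00329).

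Of the 22 fibroblast loci tested, 3 were called higher in batch 1 and 1 lower, shares below the 21.7% and 16.3% of all loci, with a median log2-fold change of 0.16 against 0.02. Besides *Col1a1*, those higher were *Fbln1*, a matrix glycoprotein (1.13, q = 0.000241), and *Col6a2*, a chain of type VI collagen (0.57, q = 0.0218), and *Dcn* was the locus that was lower. The 3 loci with the highest mean CPM after *Col1a1*, which are *Col6a3* (0.20, q = 0.481), *Col5a2* (0.30, q = 0.257) and *Col1a2* (0.55, q = 0.149), did not pass edgeR's test. The summed level of the 22 loci ran from 827 to 2139 CPM in batch 1 and from 807 to 916 CPM in batch 2. It was highest in no siRNA replicate 1 (1835 CPM) and in the library labelled siSbsn replicate 1 (2139 CPM). In the siControl libraries of batch 1 it was 827 and 891 CPM, within the range of batch 2.

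Transcripts of white blood cells were scarce in all libraries and less scarce in batch 1. *Ptprc* (chr1:138062859-138175305, minus strand, 33 exons) encodes CD45, a phosphatase on the surface of all nucleated blood cells. Its counts were 84 and 31 without siRNA, 13 and 41 in siControl and 64 and 25 in siSbsn of batch 1, or 1.97, 0.854, 0.468, 1.17, 1.97 and 0.603 CPM. In batch 2 the counts were 15, 28 and 12 in siControl and 21, 11 and 10 in siSbsn, or 0.392, 0.706, 0.387, 0.408, 0.380 and 0.262 CPM. The batches overlapped, since siControl batch 1 replicate 1 (0.468 CPM, exact Poisson 95% interval 0.249 to 0.801 for counting error only) lay below siControl batch 2 replicate 2 (0.706 CPM). The library of siSbsn batch 1 replicate 2 (0.603 CPM) also lay below it. The log2-fold change was 1.30 (SE 0.42, edgeR q = 0.0224). The call was lost without siControl batch 1 replicate 2 (1.19, q = 0.068), the library labelled siSbsn batch 1 replicate 1 (0.74, q = 0.0975) or siSbsn batch 2 replicate 6 (1.17, q = 0.0517), and the change was 0.74 (q = 0.279) within siControl and 1.82 (q = 0.0271) within siSbsn.

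*Ptprc* had company in that direction. Of 9 loci listed for white blood cells, some of them mainly of myeloid cells, 8 were called higher in batch 1, against 21.7% of all loci. All 9 had a positive log2-fold change, with a median of 1.30 against 0.02 over all loci. The largest were those of *Itgb2*, the beta chain of leukocyte integrins (2.28, q = 0.00152), *Cd53*, a leukocyte tetraspanin (2.19, q = 0.000843), *Laptm5*, a lysosomal protein of blood cells (1.90, q = 0.000397), and *Tyrobp*, a signalling adaptor of myeloid and NK cells (1.85, q = 0.00687), all from edgeR. *Fcer1g* (1.26, q = 0.0204), *Cd52* (1.21, q = 0.0417) and *Coro1a* (0.78, q = 0.0165) were also called, and *Spi1*, the myeloid transcription factor PU.1, was at 0.44 (q = 0.395). *Laptm5* was at 1.13 to 2.37 CPM in batch 1 and at 0.207 to 0.544 CPM in batch 2, with no overlap. The summed level of the 9 loci was 5.33 to 10.9 CPM in batch 1 and 1.83 to 3.12 CPM in batch 2. Counts per library were low, at 2 to 49 for *Cd53*, 2 to 32 for *Tyrobp*, 3 to 48 for *Itgb2* and 3 to 30 for *Cd52*. Such loci can pass the filter on low counts through the batch in which they are higher. The share of 8 in 9 is therefore not an independent test of this list.

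Among myeloid genes, *Adgre1*, which encodes the macrophage protein F4/80 (2.04, q = 0.00396), *Lyz2*, lysozyme of macrophages and granulocytes (1.24, q = 0.0138), *Cd68*, a lysosomal protein (0.51, q = 0.00618), and the locus that joins *H2-Ab1* and *H2-Eb1*, class II antigen presentation genes (0.77, q = 0.023), were higher in batch 1 by edgeR. These were 4 of the 5 Langerhans and myeloid loci tested, against 21.7% of all loci. The list held 9 loci, and the others did not pass the filter on low counts. *Adgre1* had 1 to 45 counts per library, and a locus this low can pass through the batch in which it is higher. *Itgam* was at 1.00 (q = 0.0662). *Cd207* (chr6:83671207-83677857, minus strand, 6 exons), which encodes langerin, the defining lectin of Langerhans cells, had a count of 0 in all 12 libraries, and a count of 0 allows up to 3 counts, or 0.0583 to 0.108 CPM per library. It did not pass the filter on low counts and was not tested. *H2-Aa*, another class II gene, had 5 counts in all 12 libraries, and the invariant chain *Cd74* had 54, against 2397 for the *H2-Ab1* and *H2-Eb1* locus. *Itgax*, of dendritic cells, had 10.

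*Pecam1* (chr11:106654213-106750628, minus strand, 16 exons) encodes CD31, an adhesion protein of endothelial cells and platelets. Its counts were 12 and 12 without siRNA, 10 and 9 in siControl and 15 and 17 in siSbsn of batch 1, and 8, 16 and 17 in siControl and 9, 12 and 24 in siSbsn of batch 2. The lowest level was 0.175 CPM (exact Poisson 95% interval 0.0799 to 0.332) in siSbsn batch 2 replicate 4, and the highest was 0.629 CPM (0.403 to 0.935) in siSbsn batch 2 replicate 6, so that the extremes came from 1 group. The log2-fold change of batch 1 against batch 2 was -0.07 (SE 0.38, edgeR q = 0.888), and a difference was not detectable at this depth. Endothelial genes differed in level: *Cdh5*, the cadherin of endothelial junctions, had 30 counts in all libraries, *Cldn5* had 1 and *Emcn* had 41. Higher counts were those of *Kdr*, with 721 in all libraries, and *Vwf*, with 535. Of 8 endothelial loci tested, *Tie1* was called higher in batch 1 (1.20, q = 0.0223) and *Tek* lower (-0.79, q = 0.0438), although both encode receptors of the angiopoietin system. These shares of 1 in 8 are below the 21.7% and 16.3% of all loci. The endothelial loci with the highest levels were *Eng*, counted with *Fpgs*, at 21.2 to 28.6 CPM, *Flt1* at 7.82 to 25.02 CPM and *Egfl7* at 1.48 to 4.43 CPM.

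**Figure D2:**
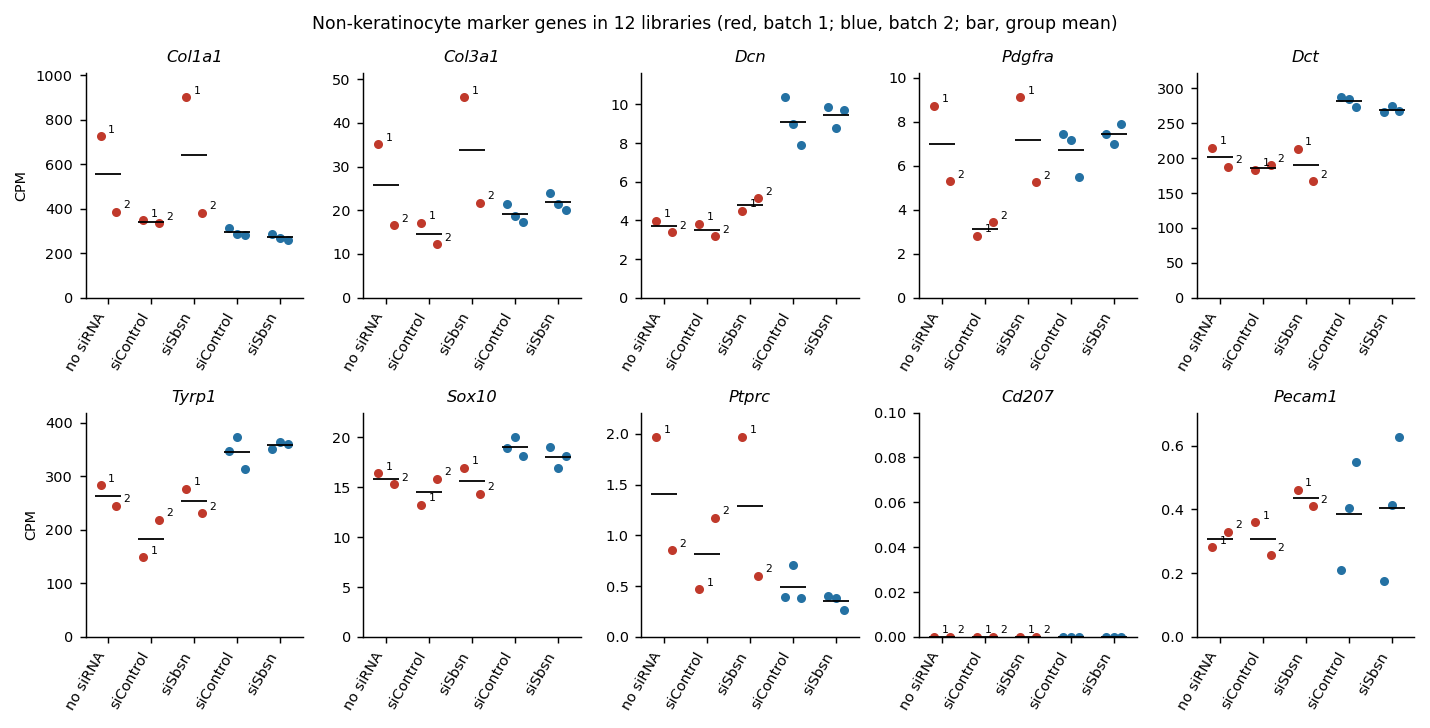
CPM of the 10 markers in each library by treatment, with batch 1 in red (numbers give the replicate) and batch 2 in blue, and the group mean as a bar. *Dct*, *Tyrp1* and *Dcn* lie higher in batch 2, *Col1a1* lies higher in batch 1, and *Cd207* is at 0 throughout.

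Over the 10 markers, 9 passed the filter on low counts, 2 of these 9 (*Col1a1* and *Ptprc*) were called higher in batch 1 and 3 (*Dcn*, *Dct* and *Tyrp1*) lower. The background was 21.7% of loci called higher and 16.3% called lower, so that a share of 2 in 9 is near it, and 3 in 9 rests on few genes. The median log2-fold change of the 9 was -0.30, against 0.02 over all loci. Every batch 1 library was above every batch 2 library for 1 of the 9, as for 19.0% of all loci, and below for 4 (*Dcn*, *Dct*, *Tyrp1* and *Sox10*), as for 16.5%. An exact two-sided permutation test that exchanged batch labels within treatment gave p = 0.01 for *Col1a1*, *Dcn*, *Dct*, *Tyrp1* and *Sox10*, the smallest p that its 100 arrangements allow. The exact permutation test gave p = 0.03 for *Ptprc*, 0.07 for *Pdgfra*, 0.8 for *Col3a1* and 0.91 for *Pecam1*. Batch also stands for everything that differed between these 2 sets of libraries, and its parts cannot be told apart. Keratinocyte genes moved with it as well: *Krt5* (0.92, q = 0.000777), *Krt14* (0.83, q = 0.00225), *Perp* (0.72, q = 0.000785), *Sfn* (0.70, q = 0.00745) and *Epcam* (1.72, q = 1.74e-06) were higher in batch 1, and *Krt10* (-1.004, q = 0.0431) and *Dsp* (-0.51, q = 0.0296) were lower by edgeR.

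**Figure D3:**
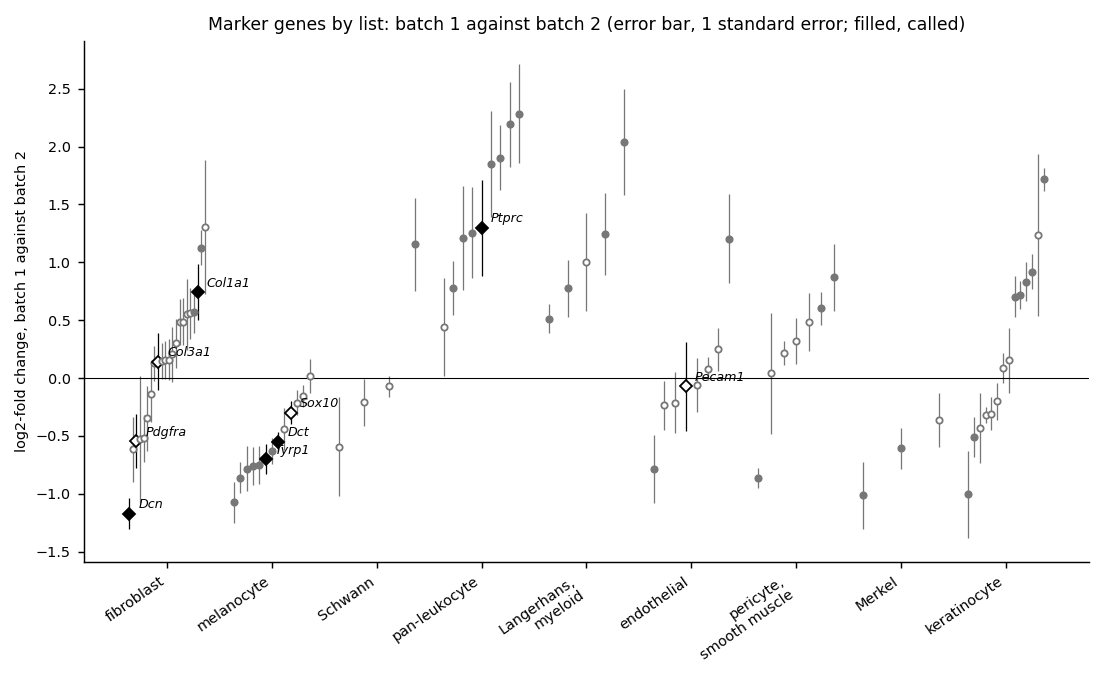
Log2-fold change of batch 1 against batch 2 for each tested locus, grouped by marker list, with 1 standard error. Diamonds are the 9 tested markers, circles are other genes of the lists, and filled symbols passed both thresholds. The white blood cell and myeloid loci lie above 0, all melanocyte loci but 1 lie below 0, and the fibroblast loci spread from -1.17 to 1.30.

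Within batch 1, libraries of replicate number 1 were compared with those of number 2. Of the 9 markers, *Col1a1* and *Col3a1* were higher in number 1 in all 3 treatments, as 27.7% of all loci were, so that 2 in 9 does not exceed the background, and none of the 9 markers was lower in all 3, as 27.8% of loci were. The *Col1a1* step was from 725 to 385 CPM without siRNA and from 902 to 381 CPM in siSbsn, but only from 349 to 335 CPM in siControl. The log2-fold change of number 1 against number 2 was 0.75 (SE 0.22, unadjusted p = 0.0157, q = 0.105) for *Col1a1* and 0.90 (SE 0.16, unadjusted p = 0.00136, q = 0.0539) for *Col3a1* by edgeR, so that neither was called. No marker was called, against 1.47% of loci called higher and 0.568% called lower in number 1. An exact two-sided permutation test within treatments gave p = 0.25 for both collagens, the smallest that 8 arrangements allow.

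Without either siControl library of batch 1, the edgeR fit gave 1.07 or 1.08 for *Col1a1* (q = 1.6e-06 or 1.52e-09), 1.08 for *Col3a1* (q = 1.3e-06 or 3.65e-09) and 0.75 or 0.76 for *Pdgfra* (q = 0.000472 or 9.51e-05), all past the thresholds. Then only the no siRNA and siSbsn pairs inform the difference. *Col3a1* also passed without the library of no siRNA replicate 2 (0.81, q = 0.0499), with no filter on low counts (0.90, q = 0.0304), with the length trend removed (1.11, q = 0.0348) and by DESeq2 (0.89, q = 0.000289). *Col1a1* passed with the length trend removed (0.99, q = 0.0402) and by DESeq2 (0.74, q = 0.00808). With either siControl library left out, *Ptprc* also passed, and the other markers did not. *Ptprc* counts were 84 against 31 without siRNA and 64 against 25 in siSbsn, but 13 against 41 in siControl, where the order was opposite. *Dcn* (0.11, q = 0.729), *Sox10* (0.04, q = 0.882) and *Tyrp1* (-0.01, q = 0.966) showed little difference by number in the fit over all 6 libraries. The libraries with the most *Col1a1*, *Col3a1*, *Pdgfra* and *Ptprc*, no siRNA replicate 1 and the library labelled siSbsn replicate 1, also had the most *Sbsn* of the 12 (1697 and 1965 CPM). Of the other lists, the *H2-Ab1* and *H2-Eb1* locus (0.99, q = 0.0471) and *Acta2*, smooth muscle actin (0.64, q = 0.0479), were called higher in number 1. The median log2-fold change was 0.54 over the 22 fibroblast loci and 0.72 over the 9 white blood cell loci. It was 0.17 over the 13 melanocyte loci and 0.43 over the 14 listed keratinocyte loci, against 0.02 over all loci. Of each of these lists, 0 loci were called. Number 1 was above number 2 in every treatment for 27.7% of all loci and below for 27.8%. It was above for 9 of the 22 fibroblast loci and below for 1. For the 9 white blood cell loci it was above for 6 and below for 0. For the 13 melanocyte loci it was above for 5 and below for 1, and for the 14 keratinocyte loci above for 8 and below for 2. What these shifts reflect was not tested.

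**Figure D4:**
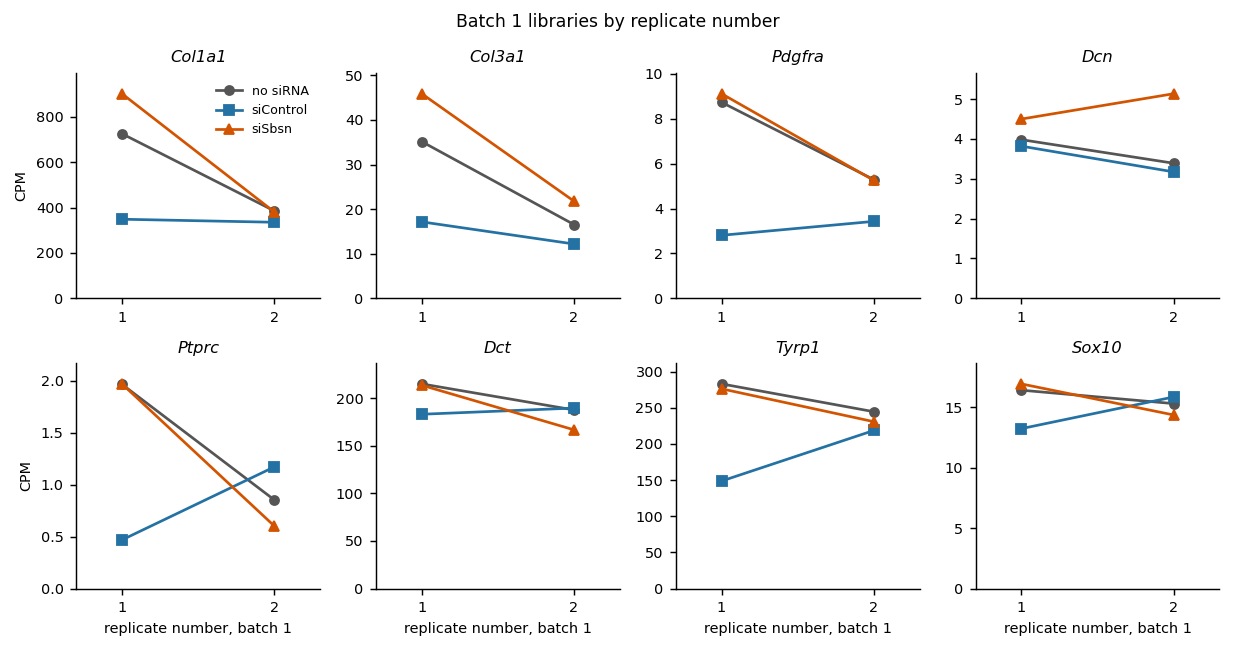
CPM of 8 markers in the 6 libraries of batch 1, by replicate number, with a line joining the libraries of 1 treatment. *Col1a1* drops from 725 to 385 CPM without siRNA and from 902 to 381 CPM in siSbsn, and the siControl line is nearly flat at 349 and 335 CPM.

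The siRNA against *Sbsn* was not followed by a called change in any marker. *Sbsn* itself, at a log2-fold change of -0.965, was not called in this fit either. The lack of a call therefore does not show that a marker was unchanged. Of 13562 loci, 0.0% were called in either direction by edgeR with batch in the model (2530 had an unadjusted p under 0.05), and DESeq2 called 53 higher and 43 lower. *Col3a1* (0.60, SE 0.24, unadjusted p = 0.0317, q = 0.261) and *Pdgfra* (0.55, SE 0.22, unadjusted p = 0.0315, q = 0.261) had the largest log2-fold changes of siSbsn against siControl among the 9 markers by edgeR. *Col3a1* differed by 1.17 in batch 1 alone (q = 0.423) and by 0.19 in batch 2 alone (q = 0.520). *Pdgfra* differed by 1.17 (q = 0.423) and 0.15 (q = 0.644). With the library labelled siSbsn replicate 1 of batch 1 left out, the values were 0.31 (q = 0.390) and 0.33 (q = 0.392). By exact permutation within each batch (two-sided) the result was p = 0.0333 for *Col3a1* and 0.0833 for *Pdgfra*, where 120 arrangements allow 0.0167 at the lowest.

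*Dct* (-0.02, SE 0.08), *Sox10* (0.00, SE 0.09) and *Tyrp1* (0.22, SE 0.13) had q-values of 0.876, 0.993 and 0.307 by edgeR. *Col1a1* was at 0.30 (SE 0.24, q = 0.429), with 0.88 in batch 1 alone and -0.10 in batch 2 alone. *Dcn* (0.22, q = 0.318), *Ptprc* (0.03, q = 0.973) and *Pecam1* (0.23, q = 0.706) did not pass either. No marker lay wholly above or wholly below siControl in both batches, while 4.9% of loci lay above and 4.04% below. The median change was 0.22 over the 9 markers and 0.01 over all loci.

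The difference between the batches in the siSbsn effect was tested as an interaction, in which no locus was called (0.0%). It was -0.998 for *Col1a1* (q = 0.306), -1.002 for *Col3a1* (q = 0.307) and -1.03 for *Pdgfra* (q = 0.286) by edgeR, as batch 2 minus batch 1 on the log2 scale. Without siSbsn batch 1 replicate 2 these were -1.49 (q = 0.00427), -1.45 (q = 0.0295) and -1.38 (q = 0.0388), and batch 1 then held as its siSbsn sample only the library whose *Sbsn* level went against its label. *Pdgfra* (-1.19, q = 0.0425) and *Tyrp1* (-0.71, q = 0.0134) also passed without siControl batch 1 replicate 2, which left the library with the length trend as the lone siControl sample of batch 1. Against the libraries without siRNA, siControl of batch 1 had 0.0% of loci called and *Pdgfra* at -1.14 (SE 0.38, unadjusted p = 0.0205, q = 0.312). *Pdgfra* passed with no filter on low counts (-1.14, q = 0.0356), and *Tyrp1* passed without siControl batch 1 replicate 2 (-0.77, q = 0.0498), against -0.49 with it, both by edgeR. For siSbsn against no siRNA, 0.0% of loci were called, and the q-value of each of the 9 markers was 1.

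The likeness of loci over the libraries did not follow the lineages throughout. After removal of each batch's mean, the loci most like *Col1a1* over the 12 libraries were *Col1a2*, the second chain of type I collagen (Pearson r = 0.988), *Nkd1* (0.986), *Col5a2* (0.982), *Col6a1* (0.982) and *Gm2a* (0.982). *Col1a1* went with *Col3a1* at r = 0.929 and with *Pdgfra* at 0.863, but with *Dcn* at 0.36. Among the loci most like *Tyrp1* were *Tgfa* (0.984), the locus of AK018092 and *Ammecr1* (0.984), *Adamts12* (0.983) and *Epb41l2* (0.982), none of which is in the melanocyte list, and *Tyrp1* went with *Dct* at 0.522 and with *Sox10* at 0.756. Pairs from different lineages reached like values, with *Pdgfra* and *Tyrp1* at 0.889, *Sox10* and *Ptprc* at 0.878, *Dct* and *Ptprc* at 0.871, and *Col1a1* with *Dct* at 0.816 and with *Ptprc* at 0.807. Without the removal of batch means, *Tyrp1* went with *Dct* at 0.864 and *Sox10* at 0.916, and with *Tgfa* at -0.472. For *Ptprc* the nearest were *Myh11* (0.959), *Eif4e3* (0.949), *Samhd1* (0.938), *Slc7a8* (0.932) and *Irgm1* (0.93), and for *Pecam1* they were *Bik* (0.856), *Snap91* (0.84), *Cd101* (0.805), the locus of *Mccc1* (0.784) and *Snord4a* (0.731). These correlations describe libraries that share treatments, depth and the length trend of 1 library, and those of *Pecam1* and *Ptprc* rest on counts of 8 to 24 and 10 to 84.

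Markers of further cell types bounded what else the cultures held. Of Schwann cell genes, *Foxd3* was at 0.689 to 1.65 CPM and *Cdh19* at 0.036 to 1.36 CPM. Of pericyte and smooth muscle genes, *Acta2* was at 583 to 1296 CPM and *Mcam* at 116 to 258 CPM. The locus that joins *Tagln* with other genes was at 433 to 736 CPM. The rest of that list had lower means, of 70.66 CPM for *Notch3* and 25.55 for *Cspg4*. The mean was 4.37 CPM for *Myh11*, 0.272 for *Rgs5* and 0.137 for *Des*. *Acta2* (0.60, q = 0.00566) and *Notch3* (0.87, q = 0.0274) were higher in batch 1 by edgeR. *Acta1*, skeletal muscle actin, was at 0.738 to 4.97 CPM and higher in batch 1 (1.79, q = 0.000362), while *Myod1* (0.0194 to 0.288 CPM) and *Ckm* (0.0322 to 0.360 CPM) did not pass the filter. Of Merkel cell genes, *Krt20* (-1.01, q = 0.0142) and *Atoh1* (-0.61, q = 0.0154) were lower in batch 1, at levels under 2 CPM, and *Sox2* was at -0.36 (q = 0.206).

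T cell, mast cell, red blood cell and fat cell genes did not pass the filter on low counts. *Cd3e* had 69 counts in all 12 libraries, *Cd3g* 30 and *Cd3d* 19. *Cma1* of mast cells had 6 counts, *Mcpt4* and *Ms4a2* had 1 each. *Alas2* of red blood cells had 69, the globin gene *Hbb-bs* had 1, and the fat cell genes *Retn*, *Adipoq* and *Plin1* had 9, 7 and 7. All of these stood below 0.5 CPM in every library.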

How the data were processed

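RNA-Seq counts of 12 libraries were used, grouped by treatment and batch from the sample labels. The authors used STAR with its defaults for alignment to mm10, kept the uniquely aligned reads, counted them on the UCSC KnownGene annotation and deposited whole-number counts per locus without normalization, with overlapping genes joined in 4802 of 21947 loci. Strand use in counting was not given in the sources used here, so reads of antisense partners may be counted together. Total counts ranged from 27934836 to 49553923, and a count of 3 was 0.0583 to 0.108 CPM. Locus starts were 1 below those of GENCODE (39.44% matched after adding 1, 3.83% as given), and 1 was added.

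Counts were tested with edgeR 4.0.16 (R 4.3.3, quasi-likelihood, TMM, Benjamini-Hochberg over the 13562 loci that passed filterByExpr), with batch and treatment as terms over the 10 siControl and siSbsn libraries, or number and treatment over the 6 libraries of batch 1. Standard errors were obtained by dividing the size of each log2-fold change by the root of its F statistic. Thresholds were those of the study (0.5 on the log2 scale, q of 0.05). The study used DESeq2 with a batch factor, and DESeq2 1.42.0 was an alternative. Exact permutation tests (two-sided, Python 3.11.15) used log2(CPM + 0.5). CPM is relative to the TMM-scaled library size. The median transcript length had been chosen for levels per kilobase, but it is set by fragments for several genes (428 bases for Col1a1), and the longest protein-coding transcript was used instead. The procedures were tested on simulated data. Members and lists were chosen with earlier results of these data known. The text names the 10 markers, in each further list the 3 loci with the highest mean CPM and every called locus, and the 5 loci most like the highest marker of each lineage, except a few loci that are not reported here. Genes quoted for a count at or near 0, for not passing, or for scale were added after their values were seen. Alternatives were DESeq2 size factors, no filter on low counts, DESeq2, each library left out, the replicate number as a block, each batch or treatment alone, total-count scaling and, added after the data were seen, removal of the length trend. Promoter windows were those of RefSeq for GRCm38.p6.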

Additional observations from a re-analysis of the deposited data

How the results depend on the processing

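Of 162 alternative counts of called loci, 125 kept their side of the threshold and stayed within 1.5 times, 2 were weaker and 35 stronger. Of 729 alternative marker log2-fold changes, 635 kept direction and call, 10 were weaker, 29 stronger and 55 reversed, and of 27 levels 20 held and 7 moved. The cause was not tested except where named. *Ptprc* and *Pecam1* had 84 counts or fewer per library.

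For siSbsn against siControl, DESeq2 called 53 loci higher and 43 lower, and batch 2 alone gave 1 lower. Reversed marker changes were -0.10 for *Col1a1*, -0.065 for *Sox10* and -0.50 for *Ptprc* in batch 2 alone, 0.090 for *Dct* and -0.10 for *Ptprc* with the length trend removed, and -0.0035 for *Ptprc* by DESeq2. Leaving out 1 library gave -0.023 to 0.39 for *Col1a1*, -0.089 to 0.025 for *Dct*, -0.057 to 0.037 for *Sox10*, -0.49 to 0.27 for *Ptprc* and -0.011 to 0.49 for *Pecam1*.

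For batch 1 against batch 2, the siControl libraries alone gave 1385 higher and 554 lower, against 2941 and 2204. *Col3a1* was at -0.38 in siControl alone (-0.25 to 0.32 without 1 library), and *Pecam1* at 0.13 in siSbsn alone (-0.30 to 0.14).

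For number 1 against number 2, the calls were 199 higher and 77 lower, 424 and 257 without the filter, 792 and 790 by DESeq2, 355 and 149 with the length trend removed, 1339 and 711 from no siRNA and siSbsn alone, and 170 to 1372 and 160 to 730 without 1 library. With the length trend removed *Dcn* was at -0.091 and *Sox10* at -0.013, and in no siRNA and siSbsn alone *Tyrp1* was at 0.23 and *Pecam1* at -0.012. Without 1 library *Tyrp1* ran from -0.15 to 0.23, *Sox10* from -0.057 to 0.17 and *Pecam1* from -0.012 to 0.33.

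Against no siRNA, no locus was called. For siControl the filter's removal gave 234 higher and 581 lower, DESeq2 25 lower, and leaving out 1 library 0 to 1718 higher and 0 to 1477 lower, the highest without siControl batch 1 replicate 2. Without 1 library *Dcn* ran from -0.21 to 0.10, *Dct* from -0.17 to 0.022, *Sox10* from -0.21 to 0.0066 and *Pecam1* from -0.24 to 0.29. For siSbsn the ranges were -0.54 to 0.74 for *Col1a1*, -0.24 to 1.03 for *Col3a1*, -0.41 to 0.44 for *Pdgfra*, -0.27 to 0.083 for *Dct*, -0.19 to 0.064 for *Tyrp1*, -0.14 to 0.092 for *Sox10* and -1.23 to 0.58 for *Ptprc*. Where an arm was left with 1 library, that library was assumed to vary like the others.

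The interaction had no call, 17 lower without the filter, 51 higher and 153 lower by DESeq2, and 0 to 1925 higher and 0 to 2423 lower without 1 library, the highest without siControl batch 1 replicate 2. Without siSbsn batch 1 replicate 2 the counts were 82 and 336. Without 1 library *Dct* ran from -0.24 to 0.13 and *Ptprc* from -1.91 to 0.0044.

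With the replicate number as a block, the interaction gave 8 higher and 65 lower and *Ptprc* in siSbsn against siControl -0.036. Deviations of same-numbered batch 1 libraries correlated at 0.379, 0.805 and 0.457 between treatments, but with only 2 numbers, and the labels do not say that a number marks a shared culture. The block changed no other count of calls by over 1.5 times.

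Per kilobase, the median transcript length gave 929.9 CPM per kilobase for *Col1a1*, 30.7 for *Col3a1*, 4.12 for *Pdgfra*, 159 for *Tyrp1* and 9.17 for *Sox10*, and the longest annotated transcript 1.41 for *Dcn* and 67.7 for *Dct*, by construction. Not centred by batch, the likeness of *Tyrp1* and *Tgfa* was -0.472.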
